A study of Mus musculus with 6 samples.

Results

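The proteasome is the large protease that degrades ubiquitin-tagged proteins, and its genes were examined here in brain RNA of APP/PS1 mice given the compound AVE0991 or saline. The genes were chosen by name: every gene row whose symbol starts with Psma, Psmb, Psmc, Psmd, Psme or Psmg, without Psmb8, Psmb9 and pseudogenes. This rule gave 47 genes of 36210 gene rows, and 45 of the 47 were among the 20363 genes with enough counts to be tested. The prefix covers more than subunits: it takes in assembly chaperones, activators and Psmc3ip, which encodes a recombination factor and is no part of the proteasome. APP/PS1 mice are an Alzheimer's disease model whose mutant human transgenes lead to amyloid plaques; the labels do not name the promoters. All 6 libraries came from such mice at 8 months of age, so there was no wild-type group. The 3 vehicle libraries came from mice injected intraperitoneally with 0.9% sterile saline, and the 3 AVE0991 libraries from mice injected with AVE0991, an analogue of the peptide hormone angiotensin-(1-7), at 10 mg per kg, once a day for 30 days in both groups. The labels name the cells as adult astrocytes and leave unsaid whether the libraries are of different animals; the spread behind each p-value is thus that between libraries and may be technical.

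In textbook outline, the proteasome has a barrel-shaped core, the 20S particle, capped by the 19S regulatory particle. The core has outer rings of alpha subunits (Psma genes), which gate the entry, and inner rings of beta subunits (Psmb genes), among which those encoded by Psmb5, Psmb6 and Psmb7 cut proteins. The cap unfolds substrates with a ring of ATPases (Psmc genes), while some of the other cap subunits, encoded by Psmd genes, bind or remove ubiquitin. In cells with impaired proteasomes the transcription factor Nrf1, encoded by Nfe2l1, is known to raise subunit genes together. In brain, the proteasome clears misfolded proteins and sets the turnover of synaptic and glial proteins.

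Most proteasome transcripts were abundant, and the median gene of the set was nearly level between the groups. Of the 45 genes tested, 0 were higher and 1 was lower in AVE0991 libraries at an edgeR adjusted p under 0.05, the gene being Psmc6, a subunit of the ATPase ring. Over all 20363 genes the shares called in the same way were 0.0344% higher and 0.83% lower. At an unadjusted p under 0.05 there were 3 proteasome genes, or 6.67% of the 45, against 23.6% of all genes tested. The median log2 fold change of AVE0991 over vehicle was -0.003 over the 45 genes and -0.007 over all genes. Of the 45 genes, 22 had a positive and 23 a negative value, and the value rose with GC content, as described further on. A median near 0 thus does not mean that each gene was unchanged. From the 10th to the 90th percentile, the 45 proteasome genes ran from -0.32 to 0.20 and all tested genes from -0.72 to 0.51. The 10211 tested genes with a mean of at least 10 CPM (counts scaled to a common library size) ran from -0.43 to 0.42. Of the 45 proteasome genes, 38 were at that level.

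The counts of the listed genes summed to 98494 to 124395 per library, or 0.218% to 0.254% of all counts on gene rows. The 95% interval of the log2 fold change had a median half-width of 0.26, and for 44 of the 45 genes it lay within a 2-fold change in either direction. The exception was Psme2b, a gene near the detection limit.

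**Figure D1:**
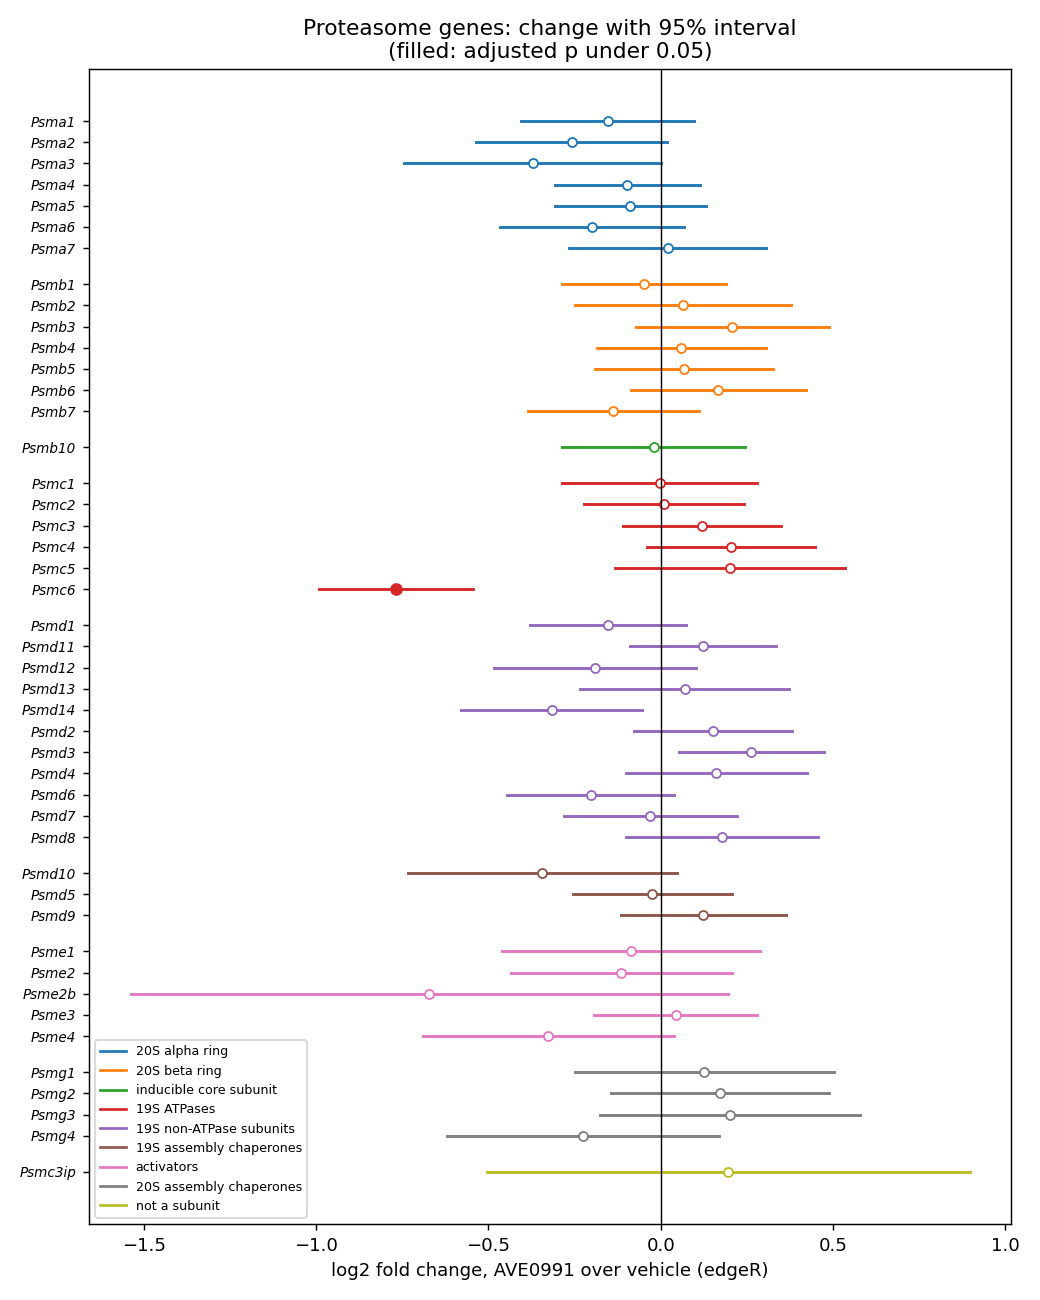
Log2 fold change of AVE0991 over vehicle (horizontal axis) with its 95% interval for the 45 tested genes, 1 gene per line, coloured by place in the complex; the filled point passed at an adjusted p under 0.05. Psmc6, at -0.77, stands apart on the left, and the interval of Psme2b is the widest.

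A few properties of the libraries bear on these comparisons. Totals ran from 44583296 to 50066692 counts on gene rows. The cells named as astrocytes held transcripts of other brain cells in every library: summed levels of the 10 neuron markers were 4958 to 5772 CPM in vehicle and 4680 to 5112 CPM in AVE0991 libraries, against 5648 to 7013 and 6376 to 7908 CPM for the 10 astrocyte markers. The astrocyte list had a median log2 fold change of 0.63, the microglia list -0.01, the mature oligodendrocyte list 0.01 and the choroid plexus and ependymal list -0.46; no gene of these lists was called by edgeR or stood at 0. Mature oligodendrocyte markers summed to 3715 to 8070 CPM in vehicle and 5604 to 11977 CPM in AVE0991 libraries, and choroid plexus and ependymal markers to 133 to 1368 CPM and 368 to 554 CPM. The 8 markers of cerebellar granule cells summed to 225 to 280 CPM in vehicle libraries, 257 CPM in AVE0991 replicate 1, and 2200 and 2151 CPM in AVE0991 replicates 2 and 3. Their part in the proteasome values was not tested. In mixed cells of this kind, fewer cells of a type and less RNA per cell cannot be told apart. The median proteasome gene stood 0.12, -0.11 and -0.04 on the log2 scale from its vehicle mean in AVE0991 replicates 1, 2 and 3, against -0.09, 0.07 and 0.00 in the vehicle libraries. Without AVE0991 replicates 2 and 3, the median log2 fold change of the 45 genes was 0.13; that leaves 1 AVE0991 library, the vehicle libraries alone give the spread, and 0 of 21972 genes of the series were called, so no call could be read from it.

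Levels per transcript length, as FPKM values from the authors, showed how unevenly the genes of this one complex were represented. Psmb4, a beta subunit, had the highest level, at 113 ± 11.3 FPKM in vehicle and 111 ± 9.56 FPKM in AVE0991 libraries (SD, n = 3 each). Psmb5 followed at 94.6 ± 8.73 and 93.8 ± 9.52 FPKM. Over all 6 libraries the 7 constitutive beta genes had mean levels of 45.5 to 112 FPKM, and the 7 alpha genes 21.1 to 52.6 FPKM, although the rings hold equal numbers of each subunit. The ATPases spanned 18.6 to 88.0 FPKM and the other cap subunits 21.7 to 75.9 FPKM. The chaperones of core assembly were scarcer, with mean levels of 6.35 to 18.1 FPKM. Psma8, known as a testis subunit, was listed at 0.00 to 0.11 FPKM, and Psmb11, known as a thymus subunit, at 0.00 to 0.03 FPKM, and neither had enough counts to be tested. Psmb11 had the lowest mean level of the 47 genes.

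**Figure D2:**
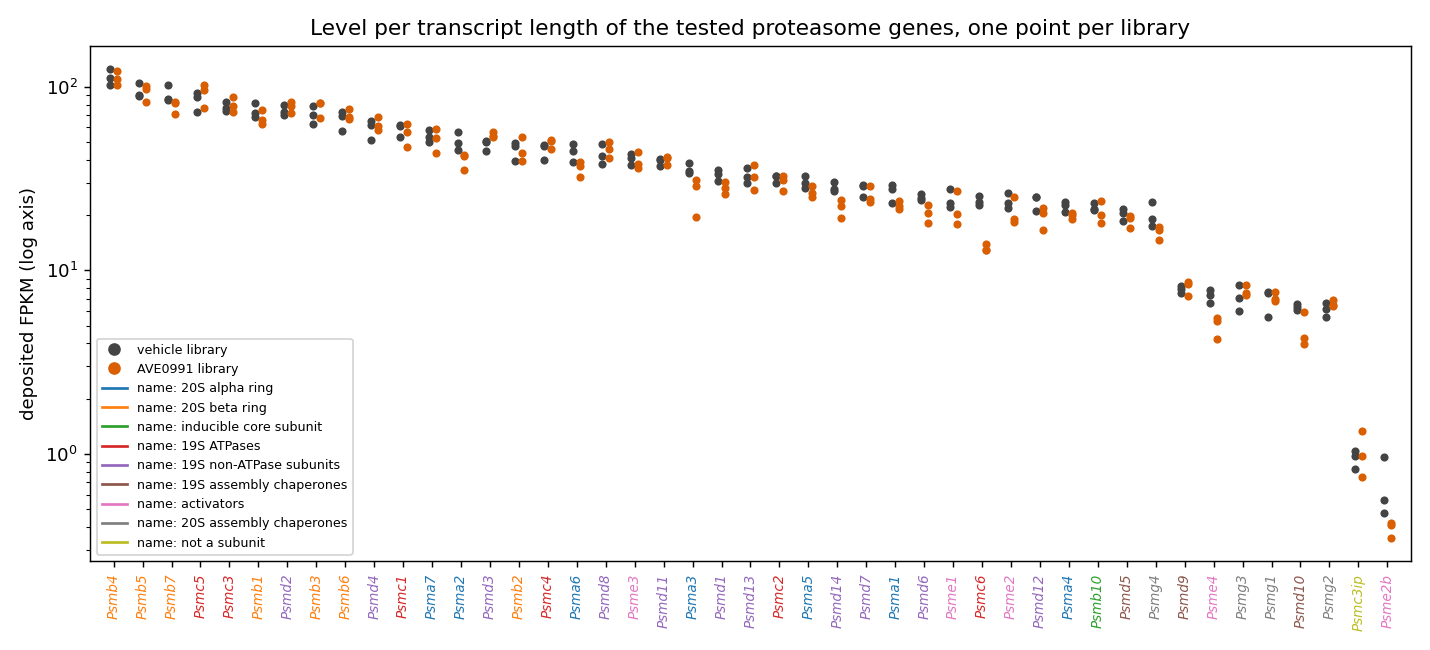
Deposited FPKM values (vertical log axis) of the 45 tested genes in each of the 6 libraries, ordered by mean in vehicle libraries; dark grey points are vehicle and orange points AVE0991 libraries, and name colours give the place in the complex. Levels fall from Psmb4, above 100 FPKM, to Psmc3ip and Psme2b, below 1 FPKM, and Psmc6 shows a gap between its dark grey and orange points.

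Among the 20S alpha genes, 0 of 7 passed the test, 6 had a negative and 1 a positive log2 fold change, and the median was -0.15. With the GC correction described further on the median was 0.09, and Psma2 and Psma3 stood at 0.29 and 0.09, so the direction depended on that correction. The corrected median is the value of Psma3. For both genes the GC content is that of the longest transcript, while counts and FPKM imply a shorter one. Their corrected values are thus uncertain. Psma3 stood at 49.99, 53.3 and 50.3 CPM in vehicle replicates 1, 2 and 3, and at 41.0, 30.8 and 46.9 CPM in AVE0991 replicates 1, 2 and 3. The groups did not overlap, but AVE0991 replicate 2 was far lower than the others (log2 fold change -0.37, SE 0.16, edgeR adjusted p = 0.213; -0.22 without that library). Psma2 stood at 40.3, 48.5 and 42.8 CPM in vehicle and at 37.9, 32.7 and 39.4 CPM in AVE0991 libraries. Here too all AVE0991 libraries were below all vehicle libraries, by a log2 of -0.26 (SE 0.12, adjusted p = 0.236). The remaining alpha genes lay between -0.20 for Psma6 and 0.02 for Psma7.

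Among the constitutive 20S beta genes, 0 of 7 passed and the median log2 fold change was 0.06, with 5 positive and 2 negative. None of the catalytic subunits was called. Psmb5, the chymotrypsin-like site, stood at 72.1, 81.6 and 71.4 CPM in vehicle and at 82.3, 70.5 and 83.2 CPM in AVE0991 libraries, and its groups overlapped (log2 fold change 0.07, 95% interval -0.19 to 0.33, adjusted p = 0.74). Psmb6, the caspase-like site, stood at 56.0, 64.9 and 69.2 CPM in vehicle and at 74.4, 68.5 and 70.6 CPM in AVE0991 libraries (0.17, SE 0.11, adjusted p = 0.385). Psmb7, the trypsin-like site, stood at 76.0, 86.9 and 75.0 CPM in vehicle and at 72.8, 66.6 and 76.7 CPM in AVE0991 libraries (-0.14, SE 0.10, adjusted p = 0.458). Of the non-catalytic subunits, Psmb3 had the largest log2 fold change of the beta ring. Psmb3 stood at 42.1, 50.5 and 46.1 CPM in vehicle and at 54.98, 47.2 and 58.0 CPM in AVE0991 libraries, with overlap (0.21, SE 0.12, adjusted p = 0.329). Psmb4 stood at 90.4, 106 and 97.1 CPM in vehicle and at 108, 95.4 and 103 CPM in AVE0991 libraries (0.06, SE 0.10, adjusted p = 0.761).

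Psmb10 encodes the interferon-inducible counterpart of the Psmb7 product and is used in the immunoproteasome, a form of the core known for making peptides for antigen presentation. It stood at 26.4, 27.6 and 26.1 CPM in vehicle and at 29.6, 23.4 and 26.0 CPM in AVE0991 libraries, and the groups overlapped (log2 fold change -0.02, 95% interval -0.29 to 0.24, edgeR adjusted p = 0.932). Per transcript length, the ratio of Psmb10 to Psmb7 was 0.253, 0.229 and 0.252 in vehicle and 0.293, 0.253 and 0.243 in AVE0991 libraries. These ratios overlapped as well, with means of 0.245 ± 0.0134 and 0.263 ± 0.0265 (SD, n = 3 each). The direction of Psmb10 turned with single libraries: the log2 fold change was 0.06 without AVE0991 replicate 2 and 0.01 without vehicle replicate 2.

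The ATPase ring held Psmc6, the gene that edgeR called. With the GC correction described further on, its log2 fold change was -0.06 and it was not called. Psmc6 stood at 34.0, 36.9 and 34.4 CPM in vehicle replicates 1, 2 and 3, and at 19.6, 20.3 and 22.0 CPM in AVE0991 replicates 1, 2 and 3. The groups did not overlap, and the AVE0991 libraries lay close together. Mean Psmc6 of the vehicle libraries was 35.1 ± 1.57 CPM and that of the AVE0991 libraries 20.6 ± 1.24 CPM (SD, n = 3 each), a 1.70-fold fall (log2 -0.77, SE 0.09, 95% interval -0.99 to -0.55, edgeR adjusted p = 0.0374). The other ATPase genes, Psmc1 to Psmc5, had log2 fold changes of -0.003, 0.01, 0.12, 0.20 and 0.20, and none of them passed. Among these, Psmc4 stood at 54.6, 64.0 and 63.8 CPM in vehicle and at 70.7, 73.4 and 66.1 CPM in AVE0991 libraries, without overlap (SE 0.10, adjusted p = 0.276). Within each library, Psmc6 per transcript length was 0.447, 0.434 and 0.401 of the geometric mean of Psmc1 to Psmc5 in vehicle and 0.210, 0.221 and 0.272 in AVE0991 libraries. This ratio does not depend on how libraries are scaled to each other, but it does not remove a GC trend that differs between libraries. Psmc6 was at 37.0% GC and Psmc1 to Psmc5 at 41.3% to 55.1%. Over all tested genes with a GC value, levels relative to the gene's mean were set against GC content. Spearman rho was -0.42 to -0.34 in vehicle and 0.27 to 0.36 in AVE0991 libraries.

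**Figure D3:**
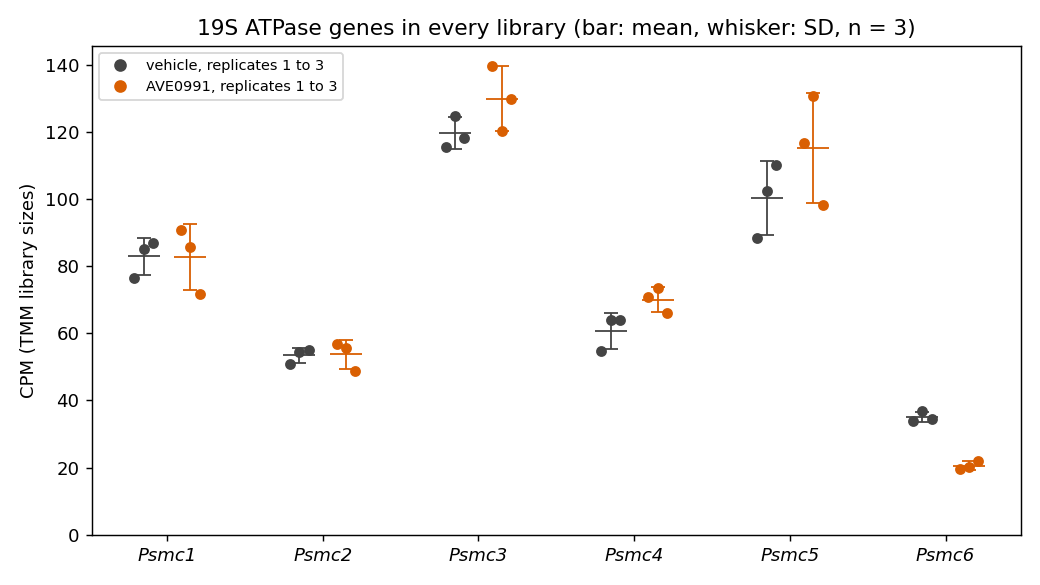
CPM (vertical axis) of the 6 ATPase genes of the 19S cap in every library, with the mean as a bar and the SD as a whisker (n = 3 per group); dark grey is vehicle, orange AVE0991. The Psmc6 points fall from 34.0 to 36.9 CPM in vehicle to 19.6 to 22.0 CPM in AVE0991 libraries, while the points of Psmc1, Psmc2, Psmc3 and Psmc5 overlap between groups.

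The log2 fold change of Psmc6 was next compared with those of genes of like GC content. Its longest GENCODE transcript has a GC content of 37.0%, the lowest of the 45 genes, whose highest was 57.4%. Counts and FPKM imply a shorter transcript for Psmc6 than these 2234 bases, so the GC content of the one measured may differ. Among the 240 tested genes within 1 percentage point of 37.0%, the median log2 fold change was -0.63. Of these genes, 33 (13.8%) were called lower, and 37.9% had a lower log2 fold change than Psmc6. With a correction of each library for GC content, Psmc6 stood at -0.06 (SE 0.11, edgeR adjusted p = 0.799) and was not called; 0.00982% of all genes tested were called in that fit. It also ended when a library was left out, AVE0991 replicate 1 excepted, with an adjusted p of 0.0973 to 0.227 and a log2 fold change of -0.81 to -0.73, and without AVE0991 replicate 1 it was -0.73 (adjusted p = 0.0108). In each of the 5 fits that ended the call 0% of all genes tested were called, and in the fit without AVE0991 replicate 1 11.4% were, so the loss of the call was shared by the whole series.

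The log2 fold changes of the set were also set against GC content. Across the 45 proteasome genes the log2 fold change rose with GC content (Spearman rho 0.55, a description over genes that share the same 6 libraries), as it did across the 15607 tested genes with a GC value (0.50). Of the 11 proteasome genes with at most 45% GC, Psmd11 and Psmc2 alone had a positive value, at 0.12 and 0.01. In the range above 40% and up to 45%, the median was -0.24 for the 8 proteasome genes and -0.25 for all 2959 genes. Above 45% and up to 50% it was -0.04 for 14 proteasome genes and -0.004 for all 3988 genes, and above 50% and up to 55% it was 0.15 for 13 proteasome genes and 0.14 for all 4034 genes. The outer ranges were further apart. Up to 40% GC the median was -0.26 for the 3 proteasome genes and -0.54 for all 901 genes, and above 55% it was 0.02 for 7 proteasome genes and 0.19 for all 3725 genes. After the GC correction the rho over proteasome genes was -0.27. Several genes of low GC content then had positive values, among them Psmd11 at 0.65, Psmc2 at 0.44, Psmb7 at 0.32 and Psma2 at 0.29. For these named genes, counts and FPKM imply a shorter transcript than the longest one, from which the GC content was taken. Their GC content may thus not be that of the transcript measured, and their corrected values are uncertain. The labels give no preparation batch, so a batch that went with the groups cannot be told apart from them.

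**Figure D4:**
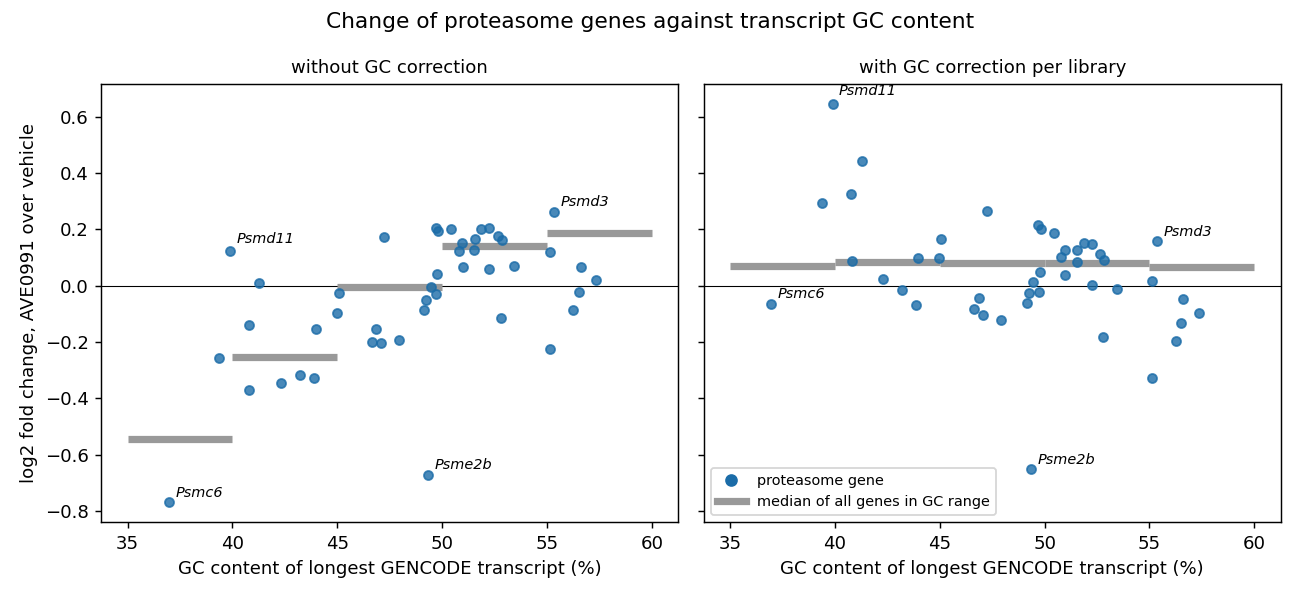
Log2 fold change of AVE0991 over vehicle (vertical axis) against transcript GC content (horizontal axis) for the 45 proteasome genes (blue), without (left) and with (right) a GC correction per library; grey bars are medians of all tested genes in each GC range, with the outer ranges drawn from 35% and to 60%. On the left the points rise with GC content up to 55% and have a median below the grey bar above it, and on the right Psmc6 lies near 0 at -0.06 and Psmd11 is the highest point at 0.65.

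Of the 11 other subunits of the 19S cap, 0 passed over all genes, and the median log2 fold change was 0.07. Psmd3, a scaffold subunit of the lid, stood at 91.9, 102 and 101 CPM in vehicle and at 118, 117 and 119 CPM in AVE0991 libraries. All AVE0991 libraries were above all vehicle libraries, by 0.26 on the log2 scale (SE 0.09, edgeR adjusted p = 0.15; 0.16 after the GC correction). Psmd14, the deubiquitinase that strips ubiquitin chains from substrates, stood at 42.0, 43.9 and 39.6 CPM in vehicle and at 36.3, 29.5 and 34.97 CPM in AVE0991 libraries. Here the groups were apart in the other direction (-0.32, SE 0.11, adjusted p = 0.158; -0.01 after the GC correction). Psmd11, a lid subunit, was higher in each AVE0991 library by small amounts (71.9 to 76.6 against 77.8 to 86.7 CPM, adjusted p = 0.438), and Psmd6, also of the lid, lower (29.1 to 30.8 against 23.5 to 28.3 CPM, adjusted p = 0.276). The ubiquitin receptor Psmd4 (log2 fold change 0.16) and the large base subunits Psmd1 (-0.15) and Psmd2 (0.15) had overlapping groups.

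The 3 chaperones that assemble the ATPase ring did not pass. Psmd10, known as gankyrin, stood at 8.33, 8.30 and 8.76 CPM in vehicle and at 8.10, 6.16 and 5.74 CPM in AVE0991 libraries (change -0.34 on the log2 scale, SE 0.16, edgeR adjusted p = 0.256). AVE0991 replicate 1 was close to the vehicle libraries, and the direction turned to 0.02 after the GC correction. Psmd9 stood at 19.001, 19.9 and 19.5 CPM in vehicle and at 21.4, 19.3 and 23.0 CPM in AVE0991 libraries (0.12, SE 0.10, adjusted p = 0.487), and Psmd5 had a log2 fold change of -0.02.

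Of the activator genes, 0 of 5 passed and the median log2 fold change was -0.11. Psme4, which encodes the single-chain activator PA200, stood at 39.5, 35.7 and 38.8 CPM in vehicle and at 23.6, 34.3 and 32.9 CPM in AVE0991 libraries. The groups did not overlap, and the lowest value was that of AVE0991 replicate 1 (-0.33, SE 0.15, edgeR adjusted p = 0.25). The log2 fold change of Psme4 was -0.17 without that library and -0.07 with the GC correction. Psme2b stood at 0.97, 0.548 and 0.478 CPM in vehicle and at 0.359, 0.435 and 0.454 CPM in AVE0991 libraries (-0.67, SE 0.37, adjusted p = 0.309; -0.28 without vehicle replicate 1). It is a close copy of Psme2, so its reads may in part be those of Psme2 and its value is uncertain. Psme1 and Psme2 encode the partner subunits of the interferon-inducible activator PA28. Their ratio per transcript length was 1.00 to 1.05 in vehicle and 0.974 to 1.08 in AVE0991 libraries, and their log2 fold changes were -0.09 and -0.11. Psme3, which encodes the nuclear form of this activator, stood at 0.04.

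The chaperones of core assembly, Psmg1 to Psmg4, did not pass, with a median log2 fold change of 0.15. Psmg2 stood at 5.82, 6.59 and 6.12 CPM in vehicle and at 6.62, 6.81 and 7.44 CPM in AVE0991 libraries, so that the groups just missed each other (0.17, SE 0.13, edgeR adjusted p = 0.468). Psmg4 had a log2 fold change of -0.23 (SE 0.17, adjusted p = 0.446; -0.05 without vehicle replicate 1), with vehicle replicate 1 at 9.79 CPM above the other vehicle libraries at 7.06 and 7.65 CPM, and AVE0991 libraries at 7.38, 6.33 and 7.24 CPM. Psmc3ip, the gene that carries the prefix without being a subunit, stood at 0.705, 0.861 and 0.896 CPM in vehicle and at 1.22, 0.697 and 0.908 CPM in AVE0991 libraries (0.20, SE 0.30, adjusted p = 0.723).

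Genes whose groups did not overlap were counted as well. All AVE0991 libraries were above all vehicle libraries for 4 of the 45 genes (8.89%), against 14.3% of all genes tested. All AVE0991 libraries were below for 8 of the 45 (17.8%), against 16.3% of all genes. The 4 were Psmc4, Psmd3, Psmd11 and Psmg2, and the 8 were Psma2, Psma3, Psmc6, Psmd6, Psmd10, Psmd14, Psme2b and Psme4.

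DESeq2 called few of these genes as well, both here and in the authors' deposited values. Those values also come from DESeq2 per the file headers, so these are not separate tools. DESeq2 called Psmd3 higher (log2 fold change 0.28, adjusted p = 0.0435) and Psmc6 lower, where it called 5.08% of all genes with an adjusted p higher and 6.77% lower. In the authors' deposited table, 0 of the 47 genes had a q-value under 0.05 in the higher and 1 in the lower direction, against 1.78% and 2.93% of all gene rows with a q-value. That 1 gene was Psmc6, with a log2 fold change of -0.75 and a q-value of 9.57e-07 in the authors' deposited table.

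Further genes that work with the proteasome were taken as a list of 30, of which 29 were found by symbol and tested. None was called in either direction by edgeR (smallest adjusted p = 0.0955), where 0.0344% of all genes were called higher and 0.83% lower. An unadjusted p under 0.05 was found for 5 of the 29, against 23.6% of all genes tested. DESeq2 called 3 of the 29 lower and 0 higher, against 6.77% and 5.08% of all genes with an adjusted p. The median log2 fold change was 0.04. Usp14, a deubiquitinase bound to the cap, stood at 79.2, 93.9 and 95.4 CPM in vehicle and at 70.0, 57.8 and 54.6 CPM in AVE0991 libraries (-0.56, SE 0.13, adjusted p = 0.0955). Uba6, a ubiquitin-activating enzyme, stood at 19.9, 18.3 and 20.3 CPM in vehicle and at 10.9, 15.6 and 11.9 CPM in AVE0991 libraries (-0.61, SE 0.15, adjusted p = 0.104). Neither group pair overlapped, and with the GC correction Usp14 stood at 0.01 and Uba6 at 0.08, at a GC content of 39.2% and 37.4%. Counts and FPKM imply a shorter transcript for both genes than the longest one, from which the GC content was taken.

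Ecpas, a proteasome-binding scaffold, stood at 137, 148 and 148 CPM in vehicle and at 112, 108 and 118 CPM in AVE0991 libraries (change -0.36 on the log2 scale, SE 0.09, edgeR adjusted p = 0.106; -0.11 after the GC correction). Psmf1, an inhibitor of the core, stood at 26.6, 28.6 and 30.7 CPM in vehicle and at 33.3, 35.1 and 33.0 CPM in AVE0991 libraries (0.24, SE 0.09, adjusted p = 0.19; 0.28 after the GC correction). Nfe2l1, the regulator of subunit genes, stood at 359, 373 and 394 CPM in vehicle and at 395, 438 and 351 CPM in AVE0991 libraries. Its groups overlapped (0.07, 95% interval -0.20 to 0.35, adjusted p = 0.741), and its direction turned to -0.02 after the GC correction.

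Nrf1 is known to bind the antioxidant response element, whose core letters TGACNNNGC were searched on both strands in RefSeq promoter windows of 300 bases, from 250 before to 50 after a start site (GRCm38.p6). Windows were at hand for 39 of the 47 genes. The core was found in 6 of the 39 (15.4%), against 14.0% of 27025 genes, where any window of a gene counted. The 6 stretches are shown because they include that of Psmc6; the core is in capitals and each is written along the strand on which it was found.

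Psmb5, chr14:54618024-54618052, minus strand: cgtgaagttgTGACGTCGCggcgttgcca
Psmb6, chr11:70525338-70525366, plus strand: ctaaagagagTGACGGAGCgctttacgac
Psmc6, chr14:45329587-45329615, minus strand: gagcaatgccTGACTTAGCtactggctgg
Psmd9, chr5:123228149-123228177, plus strand: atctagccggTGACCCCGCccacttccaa
Psmd12, chr11:107479278-107479299, minus strand: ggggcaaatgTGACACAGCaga
Psme4, chr11:30771758-30771786, minus strand: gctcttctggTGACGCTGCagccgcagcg

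The genes with this core did not share a direction: the log2 fold change was 0.07 for Psmb5, 0.17 for Psmb6 and 0.12 for Psmd9, and -0.77 for Psmc6, -0.19 for Psmd12 and -0.33 for Psme4. The matches describe these letters and not binding.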

How the data were processed

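RNA of 6 libraries was depleted of ribosomal RNA, fragmented, made into dUTP second-strand libraries and loaded as DNA nanoballs, per the labels' protocols. The submitters' processing notes name HISAT and the build mm9. Tool versions, the counter, its strand setting and its gene models: not given in the sources used here. One deposited table held estimated counts, 81.6% of them whole as written on gene rows, and FPKM values from the authors, a unit worked out from the values; a second deposited table held the authors' log2 fold changes, p-values and q-values, from DESeq2 per the file headers.

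Estimated counts were rounded and fitted over all gene rows in R 4.3.3 with edgeR 4.0.16 (filterByExpr, TMM, robust quasi-likelihood F test, no covariates), with Benjamini-Hochberg adjustment over 20363 genes and calls at an adjusted p under 0.05. Standard errors were derived from the F statistic, and CPM values use TMM library sizes. Alternatives used DESeq2 1.42.0, limma 3.58.1 (log2 of FPKM plus 0.1 or 1), other scalings and filters, single libraries left out, and loess corrections (span 0.3) for GC content and length of the longest GENCODE M21 transcript matched by Entrez identifier, found for all 45 tested proteasome genes and 76.6% of all tested genes; genes without a value were not corrected. The longest transcript need not be the one measured. Counts and FPKM imply a shorter one for Psmc6, Psma2, Psma3, Psmb7, Psmc2, Psmd11, Usp14 and Uba6, among others. No pair of libraries was a duplicate: the smallest chi-square per gene between any pair was 16.4, for vehicle replicates 2 and 3. That pair was closer than any other, the next smallest value being 51.1. The fit was also run on simulated counts. These had no GC trend between groups and no outlying library, so that run says nothing about either.

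Values in every library are given for called genes, the 2 genes of smallest p in each part of the complex, the highest and lowest by FPKM, the catalytic genes with Psmb10, and Psmc3ip, and of the partner list for the 4 of smallest p and Nfe2l1; other genes are named in summaries. The members, lists and tests were chosen with earlier results of these data known. The fit without AVE0991 replicates 2 and 3 was chosen after seeing the data. Sequences are from RefSeq (GRCm38.p6).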

Additional observations from a re-analysis of the deposited data

How the results depend on the processing

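The 20 alternatives for Psmc6 all left it negative, and 10 of them past the threshold (adjusted p from 7.69e-09 to 0.851). Without GC correction its log2 fold change stayed between -0.85 and -0.73. The call, and with it the count of 1 lower gene, went to 0 in one fit of gene and circular RNA rows (-0.79) and with the GC correction (-0.0630), where 0.00982% of all genes were called in each, and without AVE0991 replicates 2 and 3 (-0.84). That last fit has 1 AVE0991 library and called 0 of 21972 genes of the series, so its count says nothing of Psmc6. Leaving out single libraries gave -0.81 to -0.73 and counts of 0 to 1, where 0% of all genes were called in the 5 fits with a count of 0 and 11.4% in the fit with 1, without AVE0991 replicate 1. Deviations from the group mean were correlated between vehicle and AVE0991 libraries. Same-numbered libraries had correlations of -0.02, 0.09 and -0.35 for replicates 1, 2 and 3, and libraries of unlike number -0.32 to 0.39. With so few libraries, these values cannot show whether the numbers pair them. With the number as a replicate block Psmc6 stood at -0.77, and with the block and GC correction at -0.0564. In both fits 0 genes of the series were called. DESeq2 gave a count of 1 higher. The median of the 45 genes moved by more than the spread between libraries only without AVE0991 replicates 2 and 3 (0.13). Of the partner list, 3 genes were lower with DESeq2, 2 with limma-voom, and 0 to 1 with single libraries left out. Of all genes fitted, these fits called in either direction 11.4% with DESeq2 and 5.75% with limma-voom. With single libraries left out the share was 0% or 11.4%.

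Directions turned for genes that edgeR did not call on the data as analysed above; of these, DESeq2 and limma-voom called Usp14 and Uba6 lower. With the GC correction, and then with replicate block and GC correction, the log2 fold changes were 0.29 and 0.30 for Psma2, 0.0896 and 0.0751 for Psma3, 0.32 and 0.33 for Psmb7, 0.0233 and 0.00468 for Psmd10, 0.0819 and 0.0660 for Uba6, 0.0101 and 0.00846 for Usp14, -0.0462 and -0.0486 for Psmb5, and -0.0222 and -0.0267 for Nfe2l1. On log2 of FPKM plus 0.1 and plus 1, Psmb4 stood at -0.0193 and -0.0191, Psmb5 at -0.0131 and -0.0130, and Nfe2l1 at -0.0283 and -0.0280; Nfe2l1 stood at -0.00612 with limma-voom. Without AVE0991 replicates 2 and 3, Psmb10 stood at 0.16. With single libraries left out, Psmb10 ran from -0.111 to 0.0610, Psmc3ip from -0.0328 to 0.375 and Nfe2l1 from -0.00511 to 0.155. The cause was not tested. The widest 95% interval among the tested proteasome genes was that of Psme2b, from -1.54 to 0.20. Psma8 and Psmb11 had too few counts to be tested.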

Other observations

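Per transcript length, the geometric mean of the alpha genes Psma1 to Psma7 was 0.474, 0.466 and 0.470 of that of the beta genes Psmb1 to Psmb7 in vehicle replicates 1, 2 and 3, and 0.398, 0.400 and 0.410 in AVE0991 replicates 1, 2 and 3. The groups did not overlap, at 0.470 ± 0.00401 and 0.403 ± 0.00671 (SD, n = 3 each). This ratio was chosen after its values were seen, so it has no test. The alpha genes had a median GC content of 44.98% and the beta genes 51.0%. With the GC correction the median log2 fold change was 0.09 for the alpha and 0.04 for the beta genes, against -0.15 and 0.06 without it. For Psma2, Psma3 and Psmb7, counts and FPKM imply a shorter transcript than the one whose GC content was taken. The corrected medians are thus uncertain, and whether GC content accounts for the ratio was not tested.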
